A study of Mus musculus with 9 samples.

Results

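The teneurin genes of the mouse autosomes are Tenm2, Tenm3 and Tenm4, and the measurement described here is where SAFB1, a nuclear RNA-binding protein, left peaks along their transcripts. A peak was assigned to a member if its midpoint fell between the ends of the GENCODE M21 gene and its strand was that of the gene (a sense peak). That gave 115 of the 30998 deposited peaks. The members are 3 of 55450 annotated genes. Tenm4 held 72 of them, Tenm3 held 43 and Tenm2 held 0. The members were chosen by their counts of these same peaks, so counts, densities and positions are a description and carry no test.

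The series recovered RNA that came down with immunoprecipitated SAFB1 (RIP-seq) from sonicated embryonic stem cells. All 9 libraries came from a male CAST/B6 Rosa26-RMCE line, all of them after doxycycline for 3 days. SAFB1 antibody was used on wild-type cells in 3 libraries (the parent line, clone 20 and clone 44) and on Safb1/2 double-knockout clones 4 and 13 in 2 libraries. IgG was used on wild-type cells in 2 libraries (the parent line and clone 20), and FLAG antibody on double-knockout clone 13 with an eGFP plasmid (1 library) or a full-length SAFB1 plasmid (1 library). That last library is labelled WT under genotype, and its title was followed instead. What was analysed is 1 peak list for the whole series, which gives positions and no value for any library, so the depth behind a peak is unknown, groups cannot be compared, and the cell type label could not be checked against marker levels. Intervals below cover counting error only and treat peaks as independent.

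Teneurins are large transmembrane proteins that are best known from the nervous system, where they sit at the surface of growing axons and at synapses. Each has an intracellular part, a single pass through the membrane, EGF-like repeats through which molecules pair, and a large extracellular barrel-shaped domain. They bind each other and latrophilins, adhesion G-protein-coupled receptors that in turn bind FLRT proteins. Their genes are long because of very long introns, and several starts are annotated for each of them. SAFB proteins bind RNA in the nucleus, with a described preference for purine-rich sequence.

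The 3 paralogs differed sharply in the number of peaks. Tenm4 (ENSMUSG00000048078.16, chromosome 7, 96171246 to 96911093, mm10, plus strand) spans 740 kb and held 72 sense peaks (exact Poisson 95% interval 56.3 to 90.7). Tenm3 (ENSMUSG00000031561.16, chromosome 8, 48227682 to 48843951, minus strand) spans 616 kb and held 43 (31.1 to 57.9). Tenm2 (ENSMUSG00000049336.16, chromosome 11, 36006656 to 37235964, minus strand) is the longest at 1229 kb and held 0. A count of 0 was taken to allow up to 3 peaks, or 0.244 per 100 kb. The upper end of its exact Poisson interval was 3.69 peaks, or 0.300 per 100 kb. Per 100 kb of gene, Tenm4 had 9.73 peaks (7.61 to 12.3) and Tenm3 6.98 (5.05 to 9.40). The longest of the 3 was thus the one without peaks. The intervals of Tenm4 and Tenm3 overlap, and the ratio of their densities was 1.39 (0.956 to 2.03, an approximate interval on the log scale). RNA abundance was not used here, so a gene without peaks and a gene with little or no RNA cannot be told apart.

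The X-linked paralog Tenm1 also held few peaks. Tenm1 (chromosome X, 42527866 to 43429126, minus strand, 901 kb) held 2 sense peaks, or 0.222 per 100 kb (0.0269 to 0.802). They lay 32.7 and 66.3 kb from its first annotated start, where non-coding transcripts are annotated and no coding transcript reaches. None of its 3 coding transcripts contained a peak. The upper end of the Tenm1 interval lies below the lower end of the Tenm3 interval. The members were chosen with counts known and the intervals treat peaks as independent, so this is a description and no test.

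**Figure D1:**
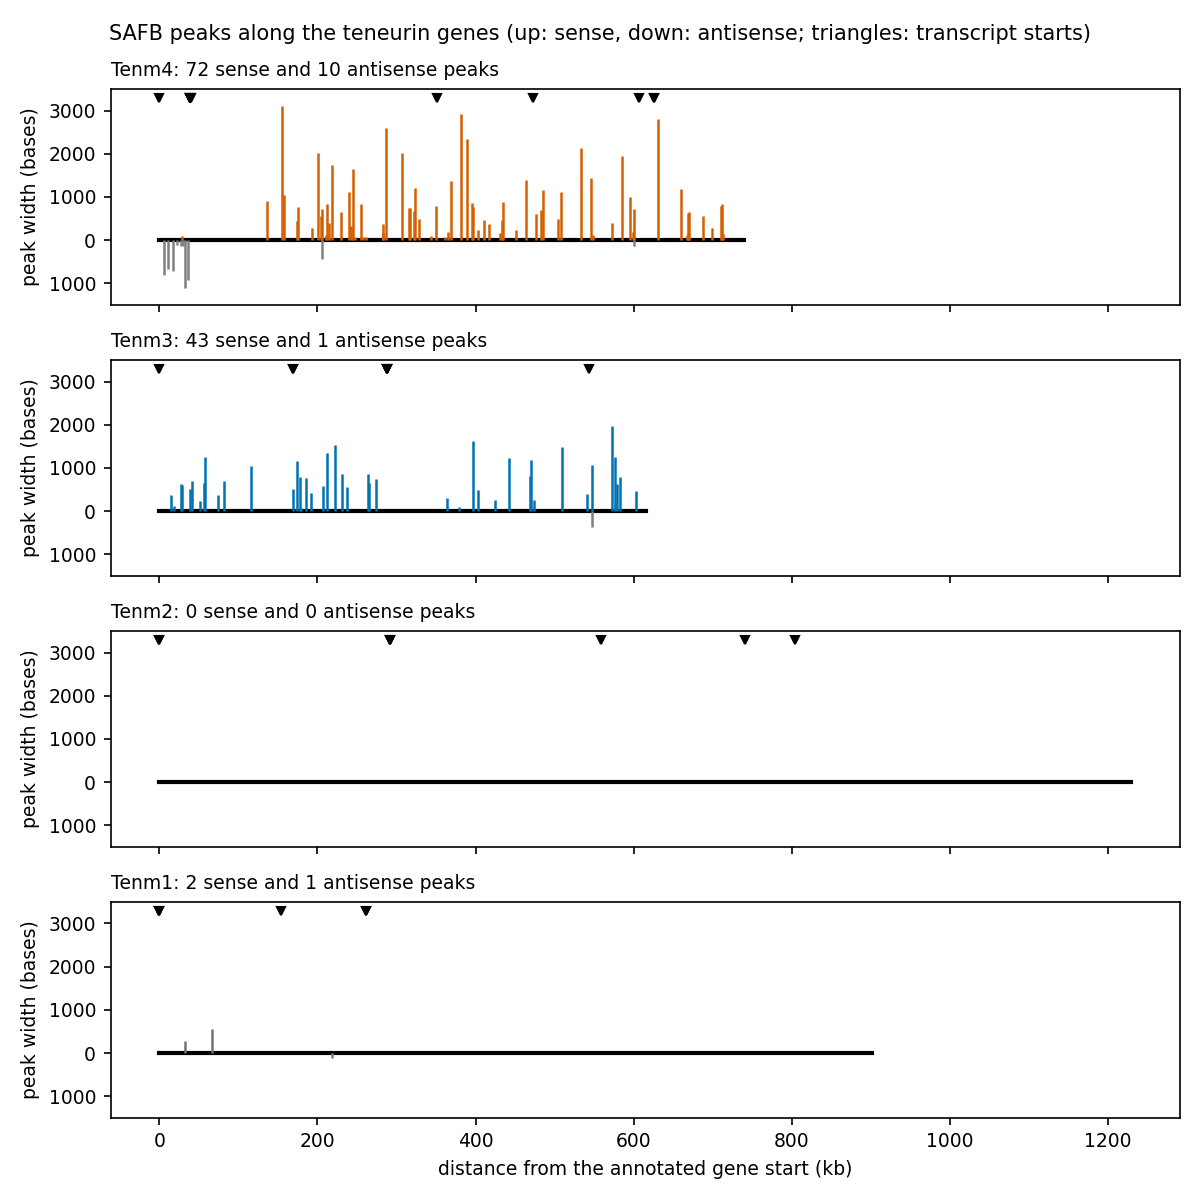
SAFB peaks along the 4 teneurin genes, by distance in kb from the annotated gene start (x axis) and peak width in bases (y axis). Bars above the line are sense peaks, grey bars below it antisense peaks, and triangles are annotated transcript starts. Tenm4 and Tenm3 carry 72 and 43 sense peaks over most of their length, Tenm1 carries 2 and Tenm2 none.

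Among genes of comparable length, Tenm4 and Tenm3 stood near the top, and Tenm2 was 1 of 178 without a peak. Of the 567 protein-coding genes at least 300 kb long, 389 (68.6%) held at least 1 sense peak, with a median of 4 per gene. At least 5 peaks were held by 46.9% of these long genes, at least 20 by 12.7% and at least 40 by 4.23% (24 genes). Over all 21951 protein-coding genes, 0.547% held at least 20 and 0.118% at least 40. Among the 567 long genes, Tenm4 ranked 5 by count and 12 by density, and Tenm3 ranked 18 and 27. The paralog Tenm1 ranked 314 and 359. The members were chosen with these counts in view, so the ranks describe and test nothing. Over the long genes together the density was 1.61 peaks per 100 kb.

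The genes nearest in length show how wide the range is. Around Tenm4, Rora held 64 peaks, Alk 14, Robo1 9, Dlgap2 and Negr1 4 each and Mdga2 0. Near Tenm3, Cdk14 held 42, Fars2 15, Ank3 12, Cacna1c 2, and Egfem1 and Pcdh11x 0. Next to Tenm2, Csmd3 and Cntn5 held 1 each, and Ccser1, Lingo2 and Agbl4 0. Tenm4 and Tenm3 thus lie above the neighbours named for them, and Tenm2 is among the genes at 0.

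**Figure D2:**
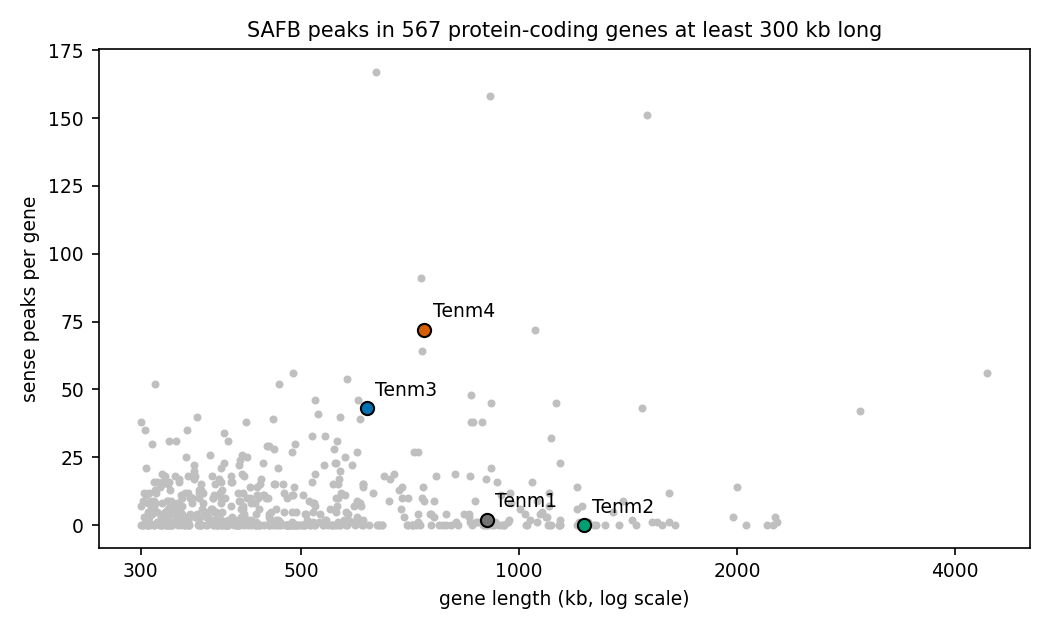
Sense peaks per gene (y axis) against gene length in kb (x axis, log scale) for 567 protein-coding genes at least 300 kb long, 1 point per gene. Tenm4 (72) and Tenm3 (43) lie far above the median gene, which holds 4. Tenm1 (2) lies a little below that median, and Tenm2 (0) is among the genes without a peak.

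The sense peaks of Tenm4 and Tenm3 stopped short of both ends of each gene. In Tenm4 the first peak lay 29.0 kb and the last 712.5 kb from the gene start, and the nearest sense-strand peaks outside it were 759 kb upstream and 53.2 kb downstream. In Tenm3 the peaks ran from 14.4 to 603.6 kb, and the nearest outside were 2481 kb upstream and 260 kb downstream. For Tenm2 the nearest were 605 kb upstream and 50.4 kb downstream. RefSeq extends Tenm3 upstream to 1297 kb in all, and the added 681 kb held 0 peaks on the gene's strand. With that extent the density of Tenm3 was 3.31 per 100 kb and the ratio of Tenm4 to Tenm3 was 2.94. The widest Tenm3 peak (1973 bases, 48269918 to 48271890) overlies a processed pseudogene inside Tenm3, Gm32842, and the other 114 peaks share their place with no sense gene.

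Almost all peaks were intronic. By midpoint, 2 of the 43 Tenm3 peaks were in an exon (4.65%, 95% Wilson interval 1.28 to 15.5), and exons of all transcripts make up 1.66% of the gene. In Tenm4, 0 of 72 were (Wilson interval 0 to 5.07), with exons at 2.84% of the gene. Allowing 3 peaks gives a share of up to 4.17%. Over all long protein-coding genes the exonic share was 3.69% (3.22 to 4.23), with exons at 1.83% of length. In Tenm4, 3 further peaks reached into a coding exon while their midpoint stayed in the intron. The peaks lay far from exons, at a median of 14.2 kb in Tenm3 and 10.0 kb in Tenm4, and 24 and 36 of them were more than 10 kb from any exon. The median over the long genes was 16.9 kb.

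The 5 places where a peak covered coding bases are shown because they are the only peak sequence that the transcript reference used here can give. Each line gives the coding part of the exon under the peak, 5′ to 3′ in the direction of transcription, from the GENCODE M21 transcripts (GRCm38, the assembly of mm10). Capitals mark 3 hexamers of the GAA repeat and no other purine run, searched on the transcribed strand alone with overlaps allowed. The hexamer GAAGAA was searched first. The same repeat shifted by a base is AGAAGA, and the remaining shift is AAGAAG.
Tenm3 exon 1, chr8:48674410-48674641, minus strand: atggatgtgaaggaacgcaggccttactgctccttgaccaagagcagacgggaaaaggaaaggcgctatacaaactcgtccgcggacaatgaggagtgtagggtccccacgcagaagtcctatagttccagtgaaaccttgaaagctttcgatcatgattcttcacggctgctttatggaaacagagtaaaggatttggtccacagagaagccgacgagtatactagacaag
Tenm3 exon 26, chr8:48240245-48240541, minus strand: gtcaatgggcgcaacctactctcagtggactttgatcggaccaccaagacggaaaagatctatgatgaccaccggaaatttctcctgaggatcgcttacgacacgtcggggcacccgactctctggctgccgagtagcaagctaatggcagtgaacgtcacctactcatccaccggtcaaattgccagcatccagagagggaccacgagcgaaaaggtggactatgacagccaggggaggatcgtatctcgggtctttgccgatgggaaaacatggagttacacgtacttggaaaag
Tenm4 exon 5, chr7:96553478-96553746, plus strand: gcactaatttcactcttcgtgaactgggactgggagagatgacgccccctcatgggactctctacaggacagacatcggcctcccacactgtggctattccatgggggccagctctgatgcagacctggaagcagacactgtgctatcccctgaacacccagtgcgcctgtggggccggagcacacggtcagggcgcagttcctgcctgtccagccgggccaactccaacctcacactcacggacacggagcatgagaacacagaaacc
Tenm4 exon 8, chr7:96703936-96704161, plus strand: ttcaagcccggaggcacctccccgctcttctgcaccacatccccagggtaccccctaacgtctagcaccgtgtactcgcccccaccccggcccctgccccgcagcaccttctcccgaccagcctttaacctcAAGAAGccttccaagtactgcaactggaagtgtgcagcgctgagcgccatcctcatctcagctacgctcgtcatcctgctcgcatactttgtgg
Tenm4 exon 12, chr7:96772004-96772105, plus strand: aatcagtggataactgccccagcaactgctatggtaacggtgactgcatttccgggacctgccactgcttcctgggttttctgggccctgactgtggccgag

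The peaks over these exons differed in extent. In Tenm3, a peak of 506 bases sat on the start of Tenm3-201, the transcript with the longest coding sequence. It reached from 28 bases upstream of that start, across exon 1 with the start codon, 197 bases into intron 1. A peak of 455 bases covered the whole of exon 26 with 21 bases of intron before it and 137 after it. In Tenm4, a peak of 721 bases began 619 bases before exon 12 and ended on the last base of that exon. A wider one of 2931 bases began 2662 bases before exon 5 and ended 1 base short of its end. The peak at exon 8, of 2125 bases, began 10 bases inside it and continued 1899 bases into the next intron. Exon numbers are those of Tenm3-201 (29 exons) and Tenm4-202 (33 exons).

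Together the 5 stretches held 1 hexamer of the GAA repeat. Only the Tenm4 exon 8 stretch held a match, 1 AAGAAG, and the other 4 stretches held 0. Among coding stretches under peaks of genes outside the family, trimmed to the same length, 32.9% (for 102 bases, 2462 stretches) to 57.0% (for 297 bases, 1017 stretches) held at least 1. Purines made up 58.2% of the Tenm3 exon 1 stretch and 55.2% of exon 26, against medians of 54.3% and 54.2% in the others. The Tenm4 stretches had fewer, at 49.8% in exon 5, 37.6% in exon 8 and 46.1% in exon 12, against medians of 54.3%, 54.0% and 54.9%. A match is a description of letters and not a binding site.

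The same GAA-repeat hexamers were counted in the full coding sequences. They occurred 1.41 times per kb in Tenm4, 1.35 in Tenm3, 1.21 in Tenm2 and 1.95 in Tenm1, all below the median of 2.67 over 21210 protein-coding genes with at least 300 coding bases. The purine share was 50.7% in Tenm4, 52.4% in Tenm3, 50.5% in Tenm2 and 52.0% in Tenm1, around a median of 51.7%. The hexamer rates of Tenm4 and Tenm3 lie between those of Tenm2 and Tenm1, and intronic sequence, where the peaks lie, was not analysed here.

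Peaks were placed differently along Tenm3 and Tenm4 when each gene was divided into 10 equal bins from its start. In Tenm3 bin 1 held most peaks, 9 of 43 (20.9%, Wilson interval 11.4 to 35.2). The following bins held 3, 4, 7, 3, 1, 4, 4 and 3, and the last held 5 (11.6%, 5.07 to 24.5). In Tenm4 bins 1 and 2 held 1 each, a share of 1.39% (0.246 to 7.46). Bin 3 held 12, the next bins 11, 11, 10, 7, 5 and 5, and the last 9 (12.5%, 6.72 to 22.1). Over all long protein-coding genes 10.01% of peaks were in bin 1 and 10.7% in the last. The intervals of the 2 genes for bin 1 do not overlap, and those for the last bin do, which is a description and no test. The shares in bin 1 depend on where a gene is taken to begin: with the longer RefSeq extent of Tenm3, an alternative chosen after seeing the data, its share there was 0.

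**Figure D3:**
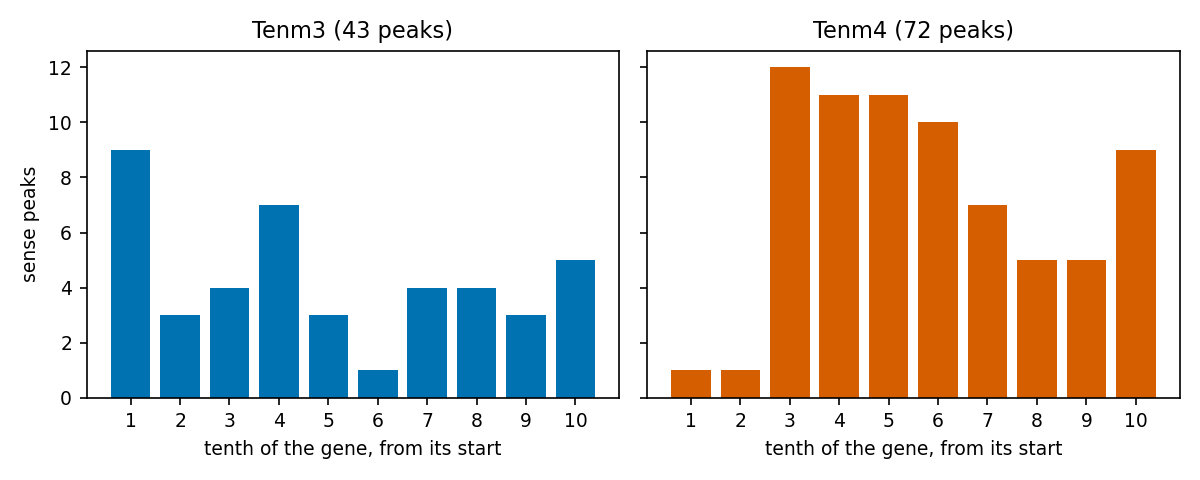
Number of sense peaks (y axis) in each of 10 equal bins of Tenm3 (left) and Tenm4 (right), counted from the gene start (x axis). Tenm3 has its highest bar, 9 peaks, in bin 1, where Tenm4 has 1, and Tenm4 has its highest, 12, in bin 3.

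Both genes have several annotated starts. GENCODE begins Tenm4 with Tenm4-201 (8475 coding bases), and 6 further transcripts start 38.4 to 40.4 kb downstream, among them Tenm4-202 (8499 coding bases) and Tenm4-203 (8388). A single sense peak, 94 bases wide, lay before them, and the other 71 lay after. In Tenm3 the gene record begins with Tenm3-207, a transcript of 508 annotated coding bases, and the full-length Tenm3-201 starts 169 kb further on. Of the 43 peaks, 12 lay before that start and 31 after it, at 7.09 and 6.93 per 100 kb. Averaged over its length, the stretch of Tenm3 that only Tenm3-207 covers thus had peaks at about the density of the rest. Its 12 peaks ended at 117.0 kb, and the next 52.3 kb, up to the peak at the start of Tenm3-201, held none.

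The region before the start codon held peaks in both genes. In Tenm4-202 the first coding base lies 266 kb from the gene start, and 22 of 72 peaks lay before it (30.6%, interval 21.1 to 42.0), with 35.9% of the length. In Tenm3, with the start codon in exon 1 of Tenm3-201, 12 of 43 did (27.9%, 16.7 to 42.7), with 27.5% of the length. Both intervals contain the share of length. Over all long genes 14.7% of peaks lay before the start codon, with 18.1% of the length.

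Every intron of at least 20 kb in the transcripts with the longest coding sequence of Tenm3 and Tenm4 held a peak. That length was chosen after these values were seen, and introns just below it could be empty. Intron 14 of Tenm4-202, of 19.3 kb, and intron 5 of Tenm3-201, of 17.9 kb, held 0. In Tenm4-202, 14 of 32 introns held a peak, including all 7 of at least 20 kb, which held 59 peaks (10.96 per 100 kb), against 12 in the 25 shorter ones (8.13 per 100 kb). Intron 1, of 143 kb, held 5, while intron 2, of 81.3 kb, held 16 (19.7 per 100 kb), intron 3 held 14 and intron 5 held 11. The most crowded was intron 19, with 4 peaks in 5.53 kb. In Tenm3-201, 8 of 28 introns held a peak, including all 5 of at least 20 kb. Intron 2, of 229 kb, held 13 (5.68 per 100 kb), intron 1, of 27.9 kb, held 5 (17.9 per 100 kb), and intron 23, of 19.0 kb, held 4 (21.03 per 100 kb). The longest intron of the family among these transcripts, intron 2 of Tenm2-201 with 479 kb, held 0.

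Peaks of both genes were of similar median width but differed at the extremes. Tenm3 peaks ran from 76 to 1973 bases with a median of 653 (quartiles 431.5 and 1055). Those of Tenm4 ran from 74 to 3102 with a median of 679 (287.5 and 1112.5). The median over peaks of all long genes was 574. Tenm4 had 8 peaks of at least 2 kb and Tenm3 had 0, while 3.94% of peaks in the long genes were that wide. At the other end, 7 Tenm4 peaks and 2 Tenm3 peaks were under 100 bases, and 4 of those in Tenm4 had the smallest width of the whole list, 74 bases. In all, peaks covered 60.7 kb of Tenm4 (8.21% of the gene) and 32.3 kb of Tenm3 (5.24%).

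Neighbouring peaks were often close. The median gap between consecutive peaks was 5.03 kb in Tenm4 and 7.11 kb in Tenm3, with the smallest at 324 and 353 bases. In Tenm4, 14 of 71 gaps were under 1 kb, and in Tenm3 6 of 42. Joining peaks less than 1 kb apart left 58 in Tenm4 and 37 in Tenm3, so the order of the genes by count stayed.

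The names of the peaks carry a number that rises along each chromosome and strand, with many numbers left out. If each number stands for 1 call made before a filter, which no source used here states, the gaps count calls that were dropped. Between the first and last peak of Tenm4 there were 333 numbers, of which 72 are in the list (21.6%). For Tenm3 there were 232, of which 43 are (18.5%). The median share in the 342 long genes with at least 2 peaks was 17.2%. Between their own first and last peaks, Tenm4 and Tenm3 thus had 48.7 and 39.3 numbers per 100 kb. Tenm2 has no peak of its own to measure between, so all 4 genes were also measured between the nearest same-strand peaks outside each gene, a span that includes sequence beyond it. On that measure Tenm4 had 22.4 numbers per 100 kb (348 over 1552 kb), Tenm3 7.84 (263 over 3357 kb) and Tenm1 2.21 (40 over 1807 kb). Tenm2 had 0.531 (10 over 1883 kb). On the same measure, among the 176 long genes that had no peak and a peak on each side, the median was 1.09 (range 0 to 14.8), and 38 were lower than Tenm2.

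The longest stretch without a peak, examined after these values were seen, was not empty of numbers in Tenm4 or in Tenm3. In Tenm4 it was 106.9 kb, from 29.1 to 136.0 kb, and 56 numbers fell in it (52.4 per 100 kb). The group of starts at 38.4 to 40.4 kb lies inside it. In Tenm3 it was 89.2 kb, from 274.0 to 363.2 kb, and 50 numbers fell in it (56.1 per 100 kb). The starts of 4 short coding transcripts, at 287.9 to 288.6 kb, lie inside it. Past the empty stretch of Tenm4, 71 of 276 numbers were in the list (25.7%). In Tenm3 the shares were 33.3% before the start of Tenm3-201 (12 of 36), 42.4% from there to the empty stretch (14 of 33) and 15.3% after it (17 of 111). Among the 72 long genes with at least 20 peaks, the longest gap held a median of 20 numbers, and Tenm4 and Tenm3 ranked 6 and 8 by that count. By the length of that gap they ranked 18 and 27. It took up 14.5% of the length of each, near the median of 14.0%. The next longest gap of Tenm3, of 52.3 kb before the start of Tenm3-201, held only 2 numbers (3.83 per 100 kb). Whether read depth moves with these stretches was not tested.

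**Figure D4:**
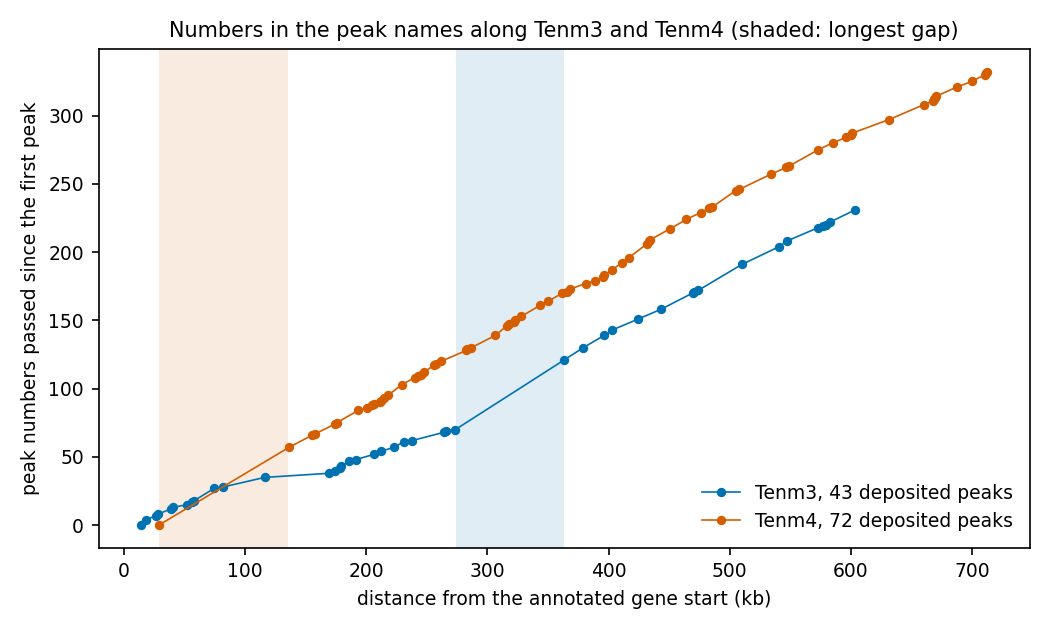
Peak numbers passed since the first peak of the gene (y axis) against distance from the gene start in kb (x axis) for Tenm3 and Tenm4, 1 point per deposited peak, with the longest gap of each gene shaded in its colour. Across the shaded gap of Tenm4, of 106.9 kb, the line only joins the peaks on either side, between which 56 numbers passed. The line of Tenm3 is steeper from its gap of 89.2 kb onward.

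On the opposite strand, Tenm4 differed from its paralogs. It held 10 antisense peaks, Tenm3 and Tenm1 held 1 each, and Tenm2 held 0. Of the 10 in Tenm4, 8 lay in the first 38.4 kb, between 5.76 and 35.9 kb from the gene start. They lie 2.55 to 32.7 kb before the start of Tenm4-211, the first of the inner starts, on the strand that runs away from it. Their widths were 797, 679, 720, 118, 143, 125, 1117 and 928 bases in the direction of Tenm4, and the only gene annotated on their strand under them is the processed pseudogene Gm8319, at the peak of 1117 bases. From the first to the last of them 14 numbers passed, of which 57.1% are in the list. The sense peak of 94 bases lies among them.

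Of the other 4 antisense peaks in the family, 3 sat on top of sense peaks. In Tenm4 the remaining 2, at 206 and 600 kb, each overlapped a sense peak, as did the single one of Tenm3, at 547 kb, while that of Tenm1 did not. Of the 567 long genes, 94 (16.6%) had at least 1 opposite-strand peak in the 40 kb before an annotated start and 2 (0.353%) had at least 8, Tenm4 being 1 of them. The window of 40 kb was chosen after these values were seen. The threshold of 8 is the count of Tenm4 itself, so Tenm4 reaches it by construction.

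The start regions differ in base composition. In RefSeq windows of 250 bases before to 50 after a start (GRCm38.p6), the pair CG, which reads the same on both strands, occurred 12 times at the inner start of Tenm4 and 6 times at its outer one. It occurred 10 times in Tenm3, 2 times in Tenm2 and 0 times in Tenm1, and the median over 32851 windows was 7. The windows of Tenm3, Tenm2 and Tenm1 are also at inner starts, 169, 292 and 154 kb from the gene start. No window at the first annotated start of these genes was measured, so the values do not describe all their starts. The share of G and C was 52.3%, 52.0%, 47.3%, 40% and 27% in the same order, with a median of 52.7%. The Tenm3 window was the only one overlapped by a sense peak, the one over exon 1 described above. These windows come from 5 starts, and nothing is tested on them.

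Genes of the proteins that teneurins work with held peaks about as often as protein-coding genes at large. Of 11 such genes, 3 (27.3%) had at least 1 sense peak, next to 26.2% of all 21951 protein-coding genes. At least 5 were held by Adgrl2 alone, where the share over all protein-coding genes was 4.52%, so the counts show nothing particular to this list. Among the latrophilins, Adgrl2 (175 kb) held 15 peaks, 1 of them exonic, at 8.57 per 100 kb, between the densities of Tenm3 and Tenm4. Adgrl3, a longer gene at 805 kb, and Adgrl1 held 0. Of the FLRT genes, whose products bind latrophilins, Flrt3 held 1 and Flrt1 and Flrt2 held 0. Among genes whose products were reported to bind teneurin intracellular parts, Mbd1, which binds methylated DNA, held 2, both exonic. Zic1, a transcription factor, and Hint1 held 0. Dag1, which encodes dystroglycan, and Furin, a proprotein convertase, also held 0. The long latrophilin gene Adgrl3 was thus without a peak, as Tenm2 was, while the shorter Adgrl2 held many.

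Other long genes were ranked by how alike their peaks were spread. Likeness was Pearson's r between shares of peaks per bin, over 10 bins, among 71 other protein-coding genes of at least 300 kb with at least 20 peaks. For Tenm3 the closest were Ank2 (r = 0.807, 54 peaks), Ctnnd2 (0.614, 48 peaks) and Xkr4 (0.556, 52 peaks). For Tenm4 they were Cdh4 (0.716, 39 peaks), Grip1 (0.603, 167 peaks) and Kcnq3 (0.596, 38 peaks). Between Tenm3 and Tenm4 r was -0.260. The correlations are over positions within genes of 1 list and are given as a description.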

How the data were processed

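The authors deposited 1 list of 30998 peaks for the 9 libraries, with 6 columns and no header. Its start and end columns are base positions (other values), and the deposited score is 500 in every peak, so it was only checked for being constant. Per the submitters' processing notes, the build is mm10 and STAR, Subread and featureCounts were used, without versions. How peaks were called and whether libraries were pooled is not given in the sources used here.

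Starts were read as counted from 0, which no source states. Each peak was assigned by its midpoint to genes of GENCODE M21, using the gene record as the extent and exons of all transcripts. Shares have 95% Wilson intervals and counts exact Poisson intervals, and a count of 0 was also taken to allow 3. The list has no values per library, so no comparison between libraries could be made and no test was run. Protein identity between paralogs was planned and not computed. The genes named are the 3 members, Tenm1, 11 partner genes, the 3 nearest in length on each side, and the 3 most alike in the spread of peaks over 10 bins. The pseudogenes Gm32842 and Gm8319 were named after their values were seen. Genes that the rule covers and the text leaves out are not reported here. Members, lists and alternatives were chosen with earlier results of these data known. Counting was tested on simulated peaks. Python 3.11.15, pandas 2.3.3 and scipy 1.17.1 were used. Depth per library is unknown here.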

Additional observations from a re-analysis of the deposited data

How the results depend on the processing

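No paired analysis was possible because the list holds no values per library. Of 112 recomputed values for Tenm2, Tenm3 and Tenm4, 101 stayed within 1.5 times the count or within the interval of the main value, and 11 did not. The 101 include the Tenm2 values and the exonic share of Tenm4, which are 0 and cannot be lowered by dropping peaks. Taking any overlap, whole peaks or starts counted from 1 changed no value. The tally thus includes values that could not move. Tenm2 has no shares, since it held 0 peaks under every alternative run. When peaks narrower than the list's median were dropped, Tenm3 held 26 peaks (4.22 per 100 kb, exonic share 0) and Tenm4 held 41 (5.54 per 100 kb, share in the first of 10 bins 0). With the span of the transcript with the longest coding sequence, the share before the start codon of Tenm3 and the share in the first of 10 bins of Tenm4 were both 0, since the region before that transcript drops out. With the RefSeq extent, chosen after seeing the data, the density of Tenm3 was 3.31 per 100 kb, its share in the first of 10 bins 0 and the ratio of Tenm4 to Tenm3 density 2.94, since RefSeq adds 681 kb without a peak. In every alternative the density of Tenm4 was above that of Tenm3.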
